A study of Mus musculus with 4 samples.

Results

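Immediate-early genes and heat-shock genes were followed in mouse lungs that carried Asf1a-knockout or wild-type KP tumours. The set holds 32 of the 31053 genes in the count tables, 18 of them immediate-early and 14 heat-shock. It was chosen by gene symbol, with earlier results of these data known. All 32 had at least 1 UMI (unique molecular identifier, the tag that marks 1 captured transcript) in the kept cells of every library. Immediate-early genes are transcribed within minutes of a stimulus from factors already present in the cell, and many encode AP-1 and other transcription factors or the phosphatases and mRNA decay factors that shut the response down again. Heat-shock genes encode chaperones that refold or escort damaged proteins, and heat-shock factor HSF1 induces many of them through repeated GAA units in their promoters. Enzymatic digestion of tissue at body temperature is known to induce both sets, and so are many stimuli in the living animal.

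KP cells are a line of mouse lung cancer cells, and Asf1a is a histone chaperone. KP-Asf1a KO or KP-WT cells had been injected into a vein of B6 mice, so that only the tumour cells carry the knockout and every other cell is a host cell. Lung tumours were then treated for 1 week with anti-PD-1 (clone 29F.1A12, 200 µg per mouse, 3 times a week) or isotype IgG. There was 1 library for each of 4 groups, KO anti-PD-1, KO IgG, WT anti-PD-1 and WT IgG, and the labels do not say how many mice or knockout clones each holds. Every lung was minced and digested with collagenase D and DNase I at 37 °C for 30 minutes, sorted for live cells with DAPI and captured with the 10x 3′ v2 kit. The groups therefore share the digestion, with no undigested lung analysed here, and RNA made before and during it cannot be told apart.

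The libraries kept 5595 cells in KO anti-PD-1, 5919 in KO IgG, 6187 in WT anti-PD-1 and 5659 in WT IgG. The median cell had 1339 UMIs in KO anti-PD-1, 1220 in KO IgG, 1881 in WT anti-PD-1 and 2026 in WT IgG. Both KO libraries were thus shallower than both WT libraries, and depth moved with genotype. Cells were clustered without the 32 genes and without 85 further early-response and chaperone genes, and 8 cell classes with at least 50 cells in every library were named from marker genes. The classes are neutrophil-like, T-like, monocyte- and macrophage-like, dendritic-like, B-like, NK-like, tumour- and plasma-like cells, and the word "like" is dropped from here on. In the tumour cells Asf1a stood at 7.66 CPM in KO anti-PD-1 and 9.82 in KO IgG, against 30.0 in WT anti-PD-1 and 33.7 in WT IgG (15 and 28 UMIs in the KO libraries, 55 and 66 in the WT libraries), lower under both KO labels. Levels are CPM throughout, UMIs scaled to 1000000 UMIs of a class in a library. No group had a replicate library and no test was run. Intervals are exact 95% intervals that cover counting error only.

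Promoter sequences of some of the genes hold elements that are known from such genes. RefSeq (GRCm38.p6) held a promoter for 27 of the 32 genes, and the 250 bases before the start were searched on both strands. A heat-shock element of 3 alternating units (GAANNTTCNNGAA or TTCNNGAANNTTC) was found in 0.466% of 32851 promoters and, within the set, in Hspd1 and Hspe1. Their genes encode the mitochondrial chaperonin Hsp60 and its partner Hsp10, lie head to head on chromosome 1 and share 1 stretch, chr1:55088039-55088096. It is shown on the minus strand for Hspd1 and on the plus strand for Hspe1, with the overlapping elements in capitals:
Hspd1: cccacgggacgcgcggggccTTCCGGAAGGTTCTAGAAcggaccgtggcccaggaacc
Hspe1: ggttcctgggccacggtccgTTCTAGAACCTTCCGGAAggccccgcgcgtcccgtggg

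A shorter element of 2 units (GAANNTTC or TTCNNGAA) was in 12.8% of all promoters. Counted by gene, it was found for 14.5% of 27025 genes. Within the set it was found for 7 of the 11 heat-shock genes and 2 of the 16 immediate-early ones, Fosl2 and Jun. The inducible Hsp70 genes Hspa1a (chr17:34972233-34972280, minus strand) and Hspa1b (chr17:34959315-34959362, minus strand) carry the same letters in this window, and Jun (chr4:95052323-95052370, minus strand) is shown beside them because its values across libraries are described below. Capitals mark the element:
Hspa1a: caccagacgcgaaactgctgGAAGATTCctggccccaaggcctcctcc
Hspa1b: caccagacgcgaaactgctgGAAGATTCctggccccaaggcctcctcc
Jun: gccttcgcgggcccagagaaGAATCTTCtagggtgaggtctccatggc

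The palindromic cAMP response element TGACGTCA was in 1.55% of all promoters and in those of Dusp1 (chr17:26508588-26508635, minus strand) and Btg2 (chr1:134079294-134079341, minus strand), an early phosphatase and an antiproliferative gene. These 2 genes take opposite places in the KO and WT libraries, as given below, and the element is in capitals:
Dusp1: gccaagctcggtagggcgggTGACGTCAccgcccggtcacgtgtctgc
Btg2: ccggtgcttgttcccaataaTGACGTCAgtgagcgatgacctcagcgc

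Every element of 3 units contains the shorter one of 2 units, so those searches overlap. The AP-1 site TGANTCA was in 6.75% of all promoters and in those of Zfp36l1, Bag3 and Hspa5, and a CArG box in 1.47% and in that of Zfp36. A match is a description of letters, and no factor's binding was measured.

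The immediate-early genes were highest in neutrophils and the heat-shock genes in tumour cells, and neutrophils stood last for the heat-shock genes. The 18 immediate-early genes summed to 20825 CPM in the neutrophils of KO anti-PD-1, 22230 in KO IgG, 19113 in WT anti-PD-1 and 19479 in WT IgG (20412 ± 1418, SD over 4 libraries of different groups). Monocytes and macrophages came next at 7796 ± 273, and neither range overlapped that of the next class by mean. The range of monocytes and macrophages did overlap that of tumour cells. Its lowest value was 7484, in WT anti-PD-1, and tumour cells reached 7562 in WT IgG. Dendritic cells (5966 ± 172), tumour cells (5517 ± 1521), B cells (5177 ± 114) and NK cells (5049 ± 193) followed, and each range overlapped that of its neighbour. T cells (3448 ± 83.2) and plasma cells (2469 ± 154) stood apart below them. Tumour cells ran from 3897 to 7562 over the libraries, described further below.

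The 14 heat-shock genes summed to 7575 CPM in the tumour cells of KO anti-PD-1, 8478 in KO IgG, 9459 in WT anti-PD-1 and 8068 in WT IgG (8395 ± 800), above the range of every other class. Dendritic cells (5004 ± 888), monocytes and macrophages (4972 ± 786), T cells (4400 ± 542), NK cells (4326 ± 651), B cells (3552 ± 391) and plasma cells (2742 ± 363) formed a ladder in which each range overlapped the next. Neutrophils held 1984 in KO anti-PD-1, 1854 in KO IgG, 2593 in WT anti-PD-1 and 2828 in WT IgG (2315 ± 470), overlapping plasma cells only among their neighbours. Neutrophil transcripts were also found in the other classes. The 10 neutrophil markers summed to 119603 to 130317 CPM in neutrophils, and to between 520 and 2642 in the other classes, apart from B cells. In B cells they summed to 5262 in KO anti-PD-1 and 2745 in KO IgG, against 983 in WT anti-PD-1 and 1078 in WT IgG. Whether they came from free RNA or from doublets was not tested. The 2 lists thus ranked the classes differently, and the class at the top of the immediate-early order was at the bottom of the heat-shock order.

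**Figure D1:**
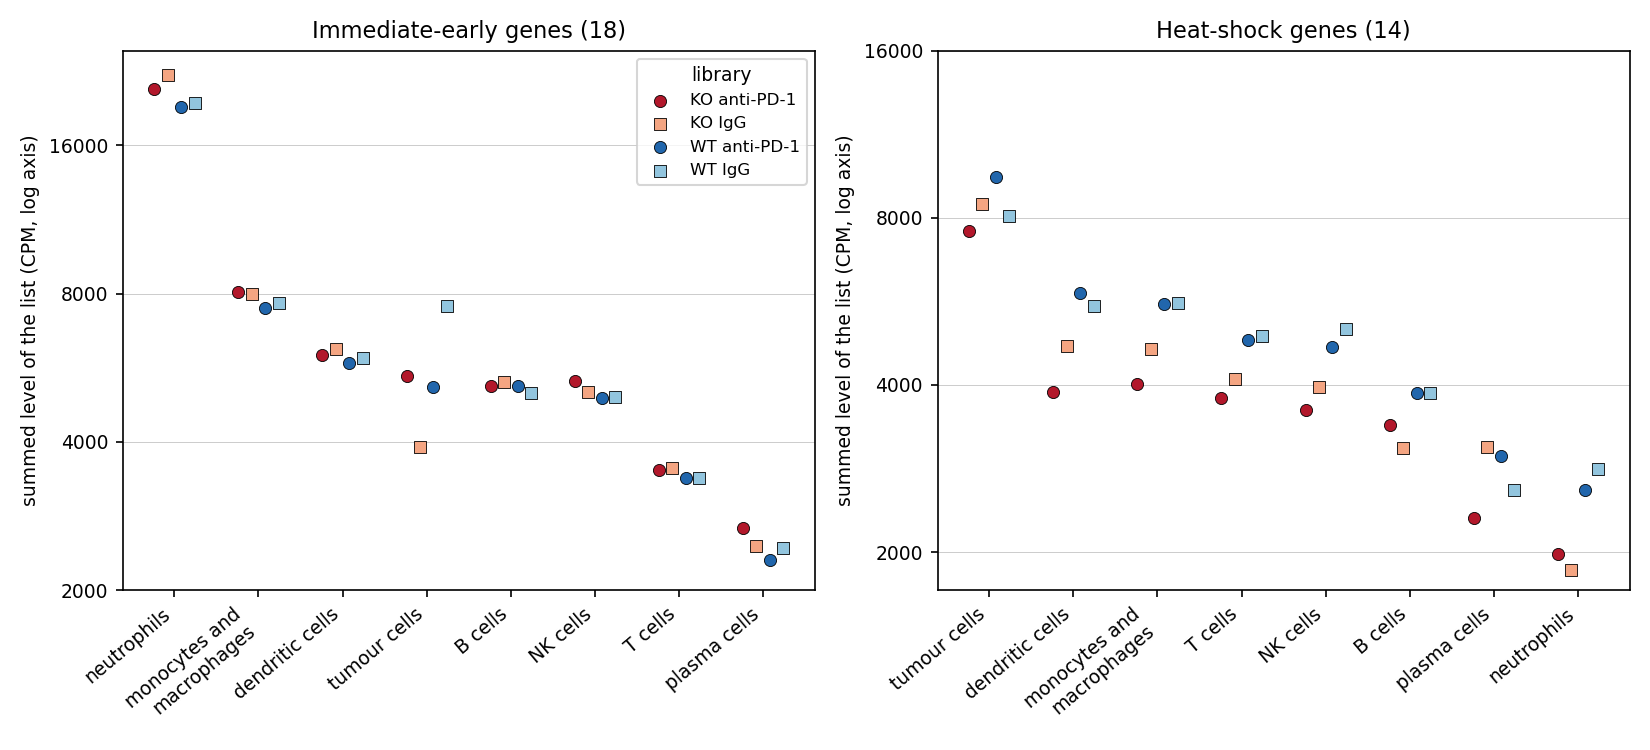
Summed level of the 18 immediate-early genes (left) and 14 heat-shock genes (right) in 8 cell classes, in CPM of the class on a log axis; each point is 1 library. Neutrophils lie between 19113 and 22230 for the immediate-early genes and between 1854 and 2828 for the heat-shock genes, and tumour cells spread from 3897 to 7562 for the immediate-early genes.

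The neutrophil level was a property of nearly every cell. With each cell thinned to 500 UMIs, neutrophils averaged 11.2 immediate-early UMIs per cell in KO anti-PD-1, 11.7 in KO IgG, 10.3 in WT anti-PD-1 and 10.3 in WT IgG, and 0.29% to 0.471% of them had none. T cells averaged 2.04 in KO anti-PD-1, 2.03 in KO IgG, 2.005 in WT anti-PD-1 and 1.93 in WT IgG, and 22.2% to 23.3% had none. Across cells of 1 class and library, the immediate-early and heat-shock UMIs of a cell had a median Pearson r of −0.01. Over 32 combinations of class and library it ranged from −0.12 to 0.33, given as a description of thinned cells from the same droplets. With few UMIs of the lists in a thinned cell, counting noise draws r towards no correlation. A low r here therefore cannot show that the 2 lists were unrelated in a cell.

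AP-1 is a dimer of Fos-family and Jun-family proteins, and Fos, its classic early subunit, was highest in neutrophils. Fos stood at 2198 CPM in the neutrophils of KO anti-PD-1, 2348 in KO IgG, 2133 in WT anti-PD-1 and 2076 in WT IgG (4155 to 6278 UMIs). In monocytes and macrophages it stood at 1147 in KO anti-PD-1, 1309 in KO IgG, 1145 in WT anti-PD-1 and 1242 in WT IgG. In T cells it stood at 111 in KO anti-PD-1, 151 in KO IgG, 103 in WT anti-PD-1 and 117 in WT IgG, the lowest class. The 4 libraries lay close together within each of these classes and far apart between classes. In tumour cells Fos stood at 725 in KO anti-PD-1 and 387 in KO IgG, against 772 in WT anti-PD-1 and 1295 in WT IgG, so that the library order there was unlike that of the host cells.

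Jun, the partner that gives the family its name, did not follow Fos. It stood in neutrophils at 92.6 CPM in KO anti-PD-1, 212 in KO IgG, 128 in WT anti-PD-1 and 149 in WT IgG. In monocytes and macrophages it stood at 135 in KO anti-PD-1, 295 in KO IgG, 159 in WT anti-PD-1 and 165 in WT IgG, and in T cells at 44.3 in KO anti-PD-1, 91.5 in KO IgG, 59.96 in WT anti-PD-1 and 72.0 in WT IgG. KO IgG was highest and KO anti-PD-1 lowest in all 3 classes, and the WT libraries lay between. Tumour cells had 137 in KO anti-PD-1, 180 in KO IgG, 164 in WT anti-PD-1 and 303 in WT IgG, where WT IgG was highest.

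Dusp1, a phosphatase that switches off the MAP kinases upstream of Fos, stood in neutrophils at 3734 CPM in KO anti-PD-1 and 4139 in KO IgG, against 2998 in WT anti-PD-1 and 3032 in WT IgG. In T cells it stood at 323 in KO anti-PD-1, 229 in KO IgG, 211 in WT anti-PD-1 and 211 in WT IgG, and in monocytes and macrophages at 1114 in KO anti-PD-1, 901 in KO IgG, 926 in WT anti-PD-1 and 862 in WT IgG. Both KO libraries exceeded both WT libraries in neutrophils and T cells, and the ranges overlapped in monocytes and macrophages. Tumour cells had 202 in KO anti-PD-1, 124 in KO IgG, 158 in WT anti-PD-1 and 217 in WT IgG.

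Hspa1a, an inducible Hsp70 gene that is low in unstressed cells, was low in every class. T cells had 29.8 CPM in KO anti-PD-1 and 48.4 in KO IgG, against 12.0 in WT anti-PD-1 and 18.5 in WT IgG (55 to 91 UMIs). Monocytes and macrophages had 50.3 in KO anti-PD-1, 68.1 in KO IgG, 27.4 in WT anti-PD-1 and 26.5 in WT IgG. Both KO libraries were above both WT libraries in these classes. Neutrophils broke the order with 21.7 in KO anti-PD-1, 24.7 in KO IgG, 12.9 in WT anti-PD-1 and 72.1 in WT IgG, and 1 cell held 38.7% of the 186 UMIs of the last. Tumour cells had between 2 and 5 UMIs in a library, at 2.55 CPM in KO anti-PD-1, 1.05 in KO IgG, 1.09 in WT anti-PD-1 and 1.53 in WT IgG, too few to order the libraries.

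Hsp90ab1, the constitutive Hsp90, stood in neutrophils at 231 CPM in KO anti-PD-1 and 197 in KO IgG, against 359 in WT anti-PD-1 and 343 in WT IgG. T cells had 859 in KO anti-PD-1, 917 in KO IgG, 1189 in WT anti-PD-1 and 1234 in WT IgG, and monocytes and macrophages had 666 in KO anti-PD-1, 817 in KO IgG, 1081 in WT anti-PD-1 and 1087 in WT IgG. In each of these 3 classes both KO libraries were below both WT libraries, and the counting intervals of KO and WT did not touch. Tumour cells had 2217 in KO anti-PD-1, 2657 in KO IgG, 2820 in WT anti-PD-1 and 2516 in WT IgG, and there the groups overlapped.

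Hspa8, the constitutive Hsp70, stood in neutrophils at 731 CPM in KO anti-PD-1 and 534 in KO IgG, against 772 in WT anti-PD-1 and 813 in WT IgG. T cells had 1213 in KO anti-PD-1, 1130 in KO IgG, 1350 in WT anti-PD-1 and 1323 in WT IgG, and monocytes and macrophages had 1666 in KO anti-PD-1, 1694 in KO IgG, 1963 in WT anti-PD-1 and 1980 in WT IgG. Tumour cells had 1935 in KO anti-PD-1, 1852 in KO IgG, 2255 in WT anti-PD-1 and 2120 in WT IgG. Both KO libraries were below both WT libraries in all 4 classes. Between 38.2% and 79.4% of the windows of 98 bases in the last 500 bases of its transcripts also occur in pseudogenes, so its counts are uncertain, as are those of Dnaja1, Hspe1, Hspb1, Hsp90aa1 and Hspd1, where up to 99.5% (Dnaja1) of the windows of a transcript are shared, and to a small extent those of Zfp36l1 and Cacybp.

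Of the other immediate-early genes, most had their highest mean in neutrophils. Those were Fosb, Fosl2, Junb, Jund, Egr1, Ier2, Ier5, Zfp36, Nr4a1 and Btg2, with Junb at 4060 ± 391 and Btg2 at 2308 ± 276 CPM. Zfp36, which destroys unstable mRNAs including those of cytokines, stood there at 1555 ± 214. The orphan receptor gene Nr4a1 stood at 1063 ± 31.0. Atf3 (277 ± 64.02) and Klf4 (208 ± 32.6), both transcription factor genes, were highest in monocytes and macrophages, and Dusp2 (487 ± 47.9), a phosphatase gene of lymphocytes, in NK cells. Zfp36l1 (806 ± 95.4), a relative of Zfp36, was highest in B cells, and Klf6 (422 ± 73.2) and Jun (196 ± 73.3) had their highest mean in tumour cells, each close to the next class.

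Among the other chaperones, the tumour cells held the highest mean of Hspe1 (876 ± 115 CPM), Hspd1 (463 ± 108), Hsp90aa1 (1168 ± 175), Dnajb1 (76.4 ± 21.5), Bag3 (19.0 ± 1.40) and Cacybp (196 ± 36.6), and shared that of Hsph1 with T cells (67.9 ± 15.5 and 67.9 ± 16.5). Hsp90aa1 is the inducible Hsp90, Dnajb1 and Dnaja1 are Hsp40 partners of Hsp70, and Hsph1 and Bag3 act on its nucleotide cycle. Hspa5, the Hsp70 of the endoplasmic reticulum, was highest in antibody-secreting plasma cells at 1496 ± 195. Dnaja1 was highest in NK cells (434 ± 81.4), Hspa1a in dendritic cells (59.0 ± 27.7) and Hspa1b in T cells (24.1 ± 13.7), and both varied widely over libraries.

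Hspb1, the small heat-shock protein, had 109 of its 832 UMIs, or 13.1%, inside the 8 classes. A cluster of 30 fibroblast-like cells held 548 of its UMIs, or 65.9%. An unnamed cluster of 18 cells held 76 more, and its leading genes were Sparc, Hspb1 itself and Col1a2. No class of the 8 had more than 29 UMIs, and Hspb1 entered no comparison below except where its sum reached 20.

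Ratios between libraries were taken within each class for genes with at least 20 UMIs over both libraries, and a gene was counted as higher or lower when the ratio reached 1.5-fold. The comparisons share libraries, so their values stand side by side and are not independent. Ratios are on the log2 scale.

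KO anti-PD-1 against WT anti-PD-1 asks what the knockout adds under the antibody, and it had the widest difference of the heat-shock genes. Their median was below 0 in 8 of 8 classes, from −0.74 in dendritic cells to −0.27 in NK cells, with a median over classes of −0.41 against −0.05 for all genes. In dendritic cells the 6 basophil and mast cell markers summed to 475 CPM in KO anti-PD-1 and 1.86 in WT anti-PD-1. Without the 12 KO anti-PD-1 and 4 WT anti-PD-1 cells that held a UMI of those markers, the dendritic median was −0.71 and the ratio of Hsph1 there −1.58. Of 94 pairs of gene and class, 32 were lower and 5 higher, where 13.4% of all pairs were lower and 9.57% higher. The 5 higher pairs were 4 of Hspa1a and 1 of Hspa1b, in dendritic cells. Immediate-early genes had a median over classes of 0.11, with 13 of 142 pairs higher and 8 lower.

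Hsph1 was lower by at least 1.5-fold in all 8 classes. In dendritic cells it had 16.3 CPM in KO anti-PD-1 and 48.8 in WT anti-PD-1 (38 and 131 UMIs), a log2 ratio of −1.58 (−2.14 to −1.05). In NK cells it had 43.5 in KO anti-PD-1 and 84.1 in WT anti-PD-1 (−0.95, −1.66 to −0.28). Plasma cells were low for several chaperones, with Hspd1 at 25.1 in KO anti-PD-1 and 53.2 in WT anti-PD-1 (−1.08, −1.93 to −0.31), Hsp90ab1 at 163 in KO anti-PD-1 and 324 in WT anti-PD-1 (−0.99, −1.31 to −0.69) and Cacybp at 28.1 in KO anti-PD-1 and 55.9 in WT anti-PD-1 (−0.99, −1.80 to −0.26). Cacybp binds the calcyclin group of S100 proteins. Hsp90ab1, Hsp90aa1, Hspd1, Hspe1, Hspa5 and Dnaja1 also had ratios below 0 in 8 of 8 classes, and the fold was reached in 5 classes for Hsp90ab1 and Hspd1, in 3 for Hsp90aa1 and Hspa5, in 2 for Dnaja1 and in 0 for Hspe1.

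Hspa1a and Hspa1b were mostly above 0, unlike the list as a whole, Hspa1a in 4 of 4 classes and Hspa1b in 4 of 5. In T cells it had 29.8 CPM in KO anti-PD-1 and 12.0 in WT anti-PD-1, and the log2 ratio was 1.31 (0.76 to 1.86). Dendritic cells had 78.3 in KO anti-PD-1 and 34.6 in WT anti-PD-1 (1.18, 0.81 to 1.55). Without the cells holding basophil or mast cell markers the dendritic ratio was 1.26. Dusp1 was above 0 in 8 of 8 classes and largest in B cells, with 440 in KO anti-PD-1 and 178 in WT anti-PD-1 (1.30, 0.95 to 1.65). The neutrophil markers moved with it there, at 5262 in KO anti-PD-1 and 983 in WT anti-PD-1. Without the 9 KO anti-PD-1 cells and 1 WT anti-PD-1 cell that had at least 2% of their UMIs in those markers, the markers stood at 994 in KO anti-PD-1 and 857 in WT anti-PD-1. Dusp1 then stood at 256 in KO anti-PD-1 and 176 in WT anti-PD-1 (0.54, 0.10 to 0.96), under 1.5-fold.

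KO IgG against WT IgG sets the knockout without antibody beside its control. The heat-shock genes had a median over classes of −0.20 against 0.06 for all genes, and 13 of 96 pairs were lower and 10 higher, where 8.72% of all pairs were lower and 10.6% higher. Neutrophils accounted for most of the lower pairs: 10 of their 12 measured genes were lower, where 10.3% of all their genes were, and the median was −0.73. Within the 3 neutrophil clusters that could be compared the median lay between −0.55 and −0.32, closer to 0 than in the class as a whole. Hsph1 in neutrophils had 9.72 CPM in KO IgG and 27.5 in WT IgG (−1.501, −2.21 to −0.83). All 10 higher pairs came from Hspa1a and Hspa1b, 5 classes each, such as Hspa1a in T cells with 48.4 in KO IgG and 18.5 in WT IgG (1.39, 0.95 to 1.83) and in monocytes and macrophages with 68.1 in KO IgG and 26.5 in WT IgG (1.36, 1.08 to 1.65). In neutrophils Hspa1a was lower, with 24.7 in KO IgG and 72.1 in WT IgG (−1.55, −1.97 to −1.13).

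Immediate-early genes in the same comparison had a median over classes of 0.04, and 10 of 141 pairs were higher and 16 lower. Tumour cells held 12 of the 16 lower pairs. There all 18 genes had ratios below 0 and 12 were lower by at least 1.5-fold, where 15.1% of all tumour-cell genes were, with a median of −0.92. Fosb had 54.0 CPM in KO IgG and 186 in WT IgG (−1.78, −2.07 to −1.51), Fos had 387 in KO IgG and 1295 in WT IgG (−1.74, −1.85 to −1.64), Zfp36 had 82.4 in KO IgG and 268 in WT IgG (−1.70, −1.93 to −1.48) and the early zinc-finger factor Egr1 had 89.1 in KO IgG and 261 in WT IgG (−1.55, −1.77 to −1.33). Nr4a1 and Btg2 were below 0 in 8 of 8 classes, though past 1.5-fold in tumour cells alone.

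KO anti-PD-1 against KO IgG is the antibody's comparison in knockout tumours. The heat-shock genes had a median over classes of −0.25, below 0 in 7 of 8 classes, against −0.07 for all genes. Of 95 pairs, 22 were lower and 1 higher, where 13.6% of all pairs were lower and 8.88% higher. The higher one was Dnajb1 in tumour cells, with 96.6 CPM in KO anti-PD-1 and 46.0 in KO IgG (1.07, 0.74 to 1.40). Hspd1 in plasma cells had 25.1 in KO anti-PD-1 and 67.2 in KO IgG (−1.42, −2.27 to −0.64), in a class whose median over all genes was −0.30. Hspa1b in T cells had 16.9 in KO anti-PD-1 and 44.1 in KO IgG (−1.38, −2.005 to −0.79).

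Jun was below 0 in 8 of 8 classes and lower by at least 1.5-fold in 6, and no other immediate-early gene was below 0 in all of its classes. Its ratio was −1.20 (−1.45 to −0.95) in neutrophils, −1.13 (−1.27 to −0.998) in monocytes and macrophages, −1.05 (−1.43 to −0.67) in T cells and −1.02 (−1.63 to −0.44) in NK cells. The list as a whole had a median over classes of −0.04, with 15 of 138 pairs higher and 10 lower. In tumour cells 8 of 17 were higher, where 9.68% of all genes were, with a median of 0.54. Klf4 in neutrophils had 28.6 CPM in KO anti-PD-1 and 10.8 in KO IgG (1.40, 0.72 to 2.10).

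WT anti-PD-1 against WT IgG, the antibody's comparison in wild-type tumours, had the fewest pairs past 1.5-fold. Among immediate-early genes 3 of 141 pairs were higher and 8 lower, and among heat-shock genes 4 of 95 were higher and 5 lower, where 6.96% of all pairs were higher and 6.84% lower. Medians over classes were −0.03 and 0.03. Tumour cells held 6 of the 8 lower immediate-early pairs, where 9.84% of their genes were lower, with Jun at 164 CPM in WT anti-PD-1 and 303 in WT IgG (−0.88, −1.09 to −0.68), Ier2 at 502 in WT anti-PD-1 and 907 in WT IgG (−0.85, −0.97 to −0.74), Btg2 at 179 in WT anti-PD-1 and 309 in WT IgG (−0.79, −0.98 to −0.59) and Fosb at 108 in WT anti-PD-1 and 186 in WT IgG (−0.78, −1.04 to −0.53). In neutrophils Hspa1a had 12.9 in WT anti-PD-1 and 72.1 in WT IgG (−2.48, −3.12 to −1.89), or −1.95 without the cell richest in it, and Hspa1b had 5.73 in WT anti-PD-1 and 15.1 in WT IgG (−1.40, −2.47 to −0.44). Klf4 in T cells had 16.9 in WT anti-PD-1 and 9.34 in WT IgG (0.85, 0.30 to 1.42) and Egr1 in NK cells had 26.7 in WT anti-PD-1 and 48.1 in WT IgG (−0.85, −1.71 to −0.03).

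**Figure D2:**
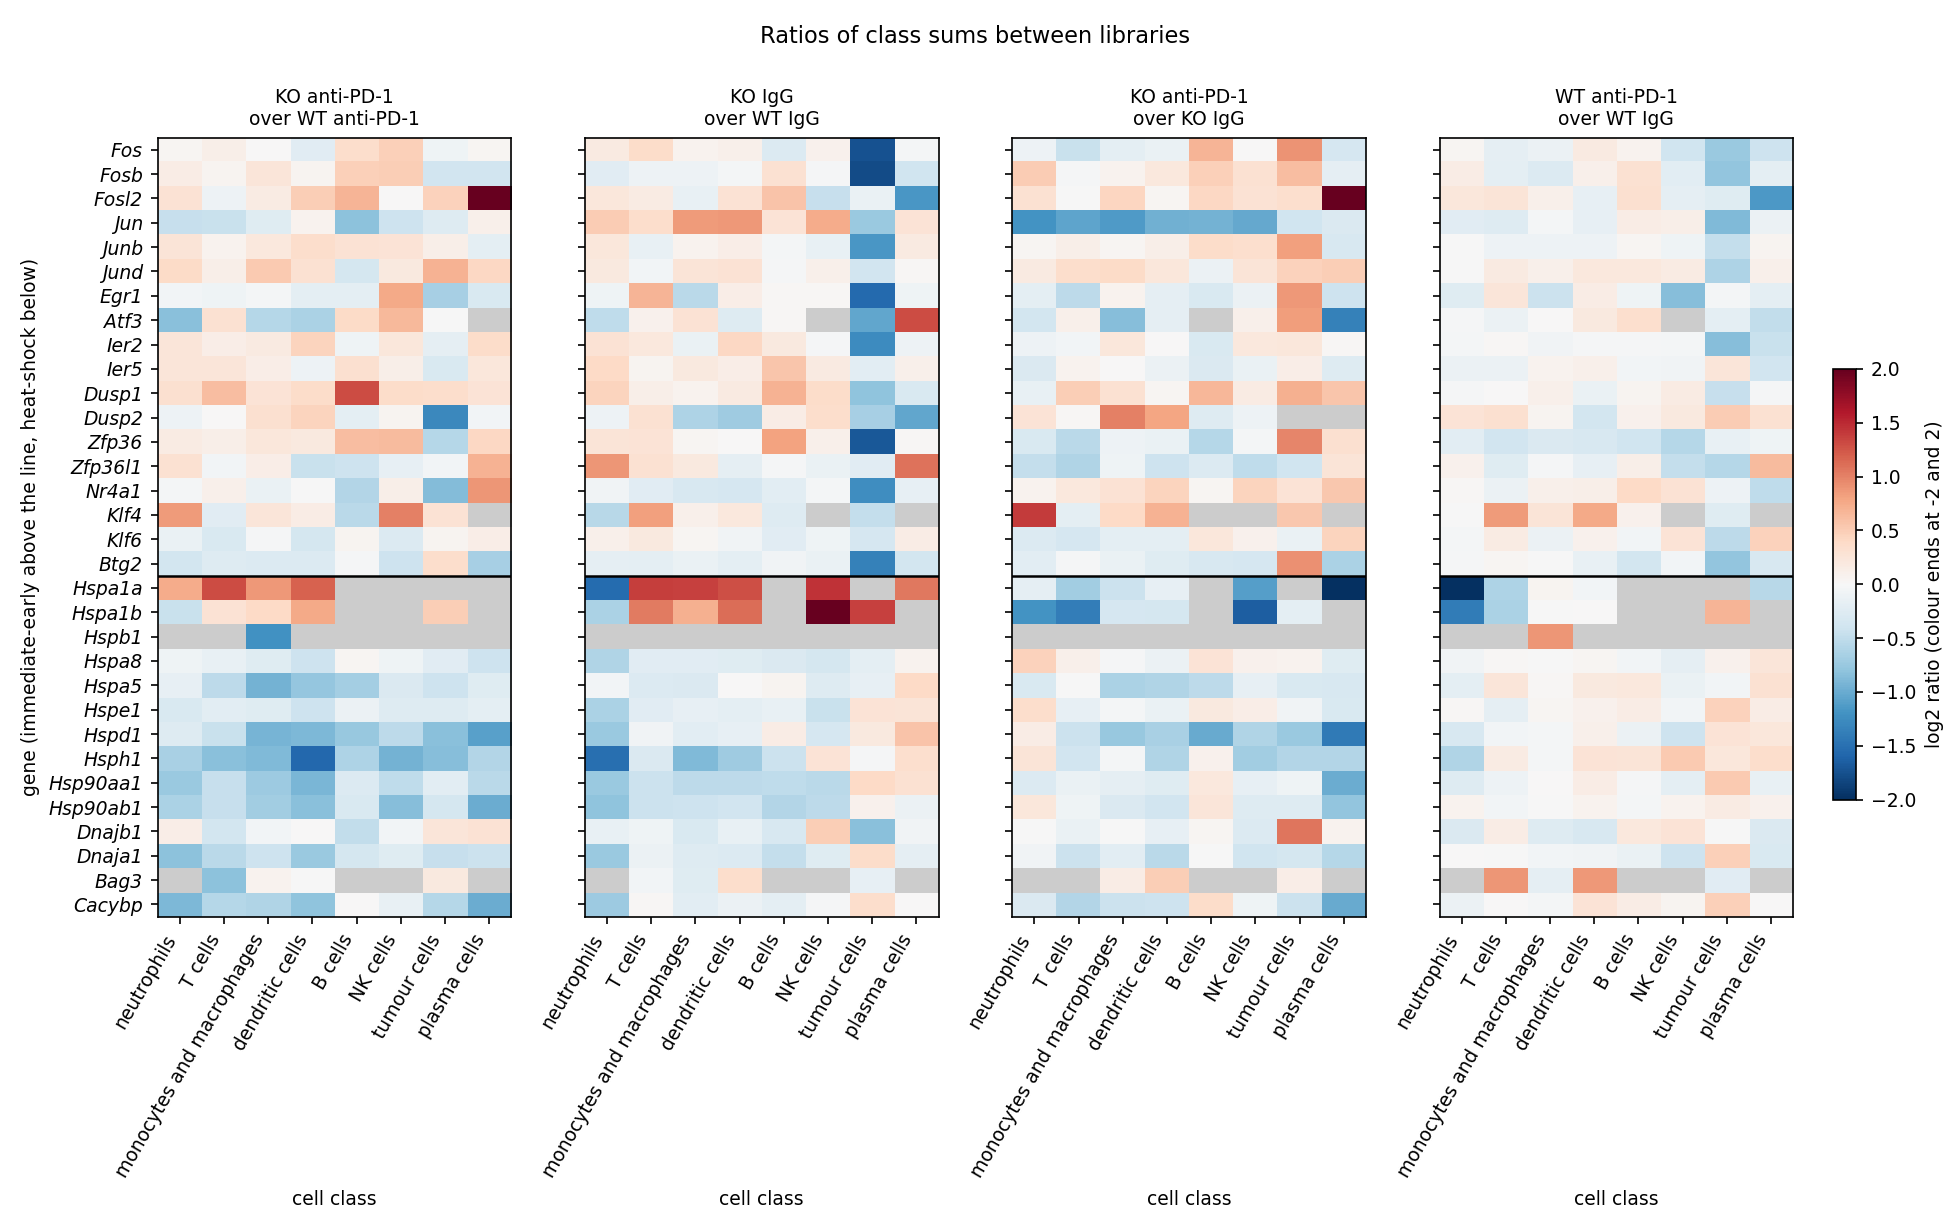
Log2 ratio of class sums between libraries for the 32 genes (rows) in 8 cell classes (columns), 1 panel per comparison; blank cells had under 20 UMIs over both libraries. The heat-shock rows below the line are mostly below 0 in KO anti-PD-1 over WT anti-PD-1, Jun is below 0 in every class of KO anti-PD-1 over KO IgG, and the tumour column of KO IgG over WT IgG is below 0 for all 18 immediate-early genes.

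Over both antibodies, both KO libraries lay below both WT libraries for 50 of 95 heat-shock pairs, or 52.6%, where 19.1% of all pairs of gene and class did, and above them for 7, where 20.5% of all pairs did. The share of all genes below ran from 11.8% in T cells to 27% in neutrophils. By class the heat-shock genes below were 10 of 13 genes in monocytes and macrophages, 9 of 13 in T cells, 8 of 12 in neutrophils, 8 of 13 in dendritic cells, 6 of 11 in NK cells, 5 of 10 in B cells, 3 of 12 in tumour cells and 1 of 11 in plasma cells. Hsp90ab1 was below in 7 classes, Hspa8, Hsph1 and Hsp90aa1 in 6, and Hspe1 and Dnaja1 in 5. The 7 pairs above were Hspa1a in 4 classes and Hspa1b in 3, and neither was below in any class with at least 40 UMIs. The KO libraries were shallower. With every cell thinned to 500 UMIs, 42 of the 73 pairs that still had at least 40 UMIs were below, or 57.5%. Among all pairs so thinned 18.6% were below. The part of depth in these counts was not tested. With 1 library in each group, genotype and library cannot be told apart.

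For the immediate-early genes both KO libraries lay above both WT libraries in 32 of 141 pairs and below in 27, near the shares of all pairs. On thinned cells they lay above in 36 of 116, where 19.1% of all pairs did, and below in 13. Dusp1 and Ier5 were above in 5 classes each, and Btg2 was below in 6 and Nr4a1 in 4. Tumour cells alone held 9 of the 27 pairs below on all UMIs, among 18 genes, where 22.9% of all tumour-cell genes were below. On thinned cells they held 1 of the 13 below and 1 of the 36 above, among 12 genes measured. There 20.9% of all tumour-cell genes were below.

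The tumour-cell values of the immediate-early genes varied among the cells of the class as well as between libraries. The class comprised 137 cells in KO anti-PD-1, 219 in KO IgG, 115 in WT anti-PD-1 and 113 in WT IgG, and the gene sums were weighted towards its largest cells. Thinned to 500 UMIs, a tumour cell averaged 2.99 immediate-early UMIs in KO anti-PD-1, 1.98 in KO IgG, 1.85 in WT anti-PD-1 and 3.42 in WT IgG. At that depth the share of tumour cells with a Fos UMI was 26.3% in KO anti-PD-1, 15.1% in KO IgG, 10.4% in WT anti-PD-1 and 34.5% in WT IgG. In T cells, the class with the lowest Fos level, it was 6.02% in KO anti-PD-1, 8.29% in KO IgG, 5.42% in WT anti-PD-1 and 5.80% in WT IgG. The thinned values put both WT anti-PD-1 and KO IgG low, whereas the sums put KO IgG alone low. On thinned cells the KO IgG to WT IgG median was −0.54 and that of KO anti-PD-1 to WT anti-PD-1 was 0.60, against −0.92 and −0.07 on the sums.

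**Figure D3:**
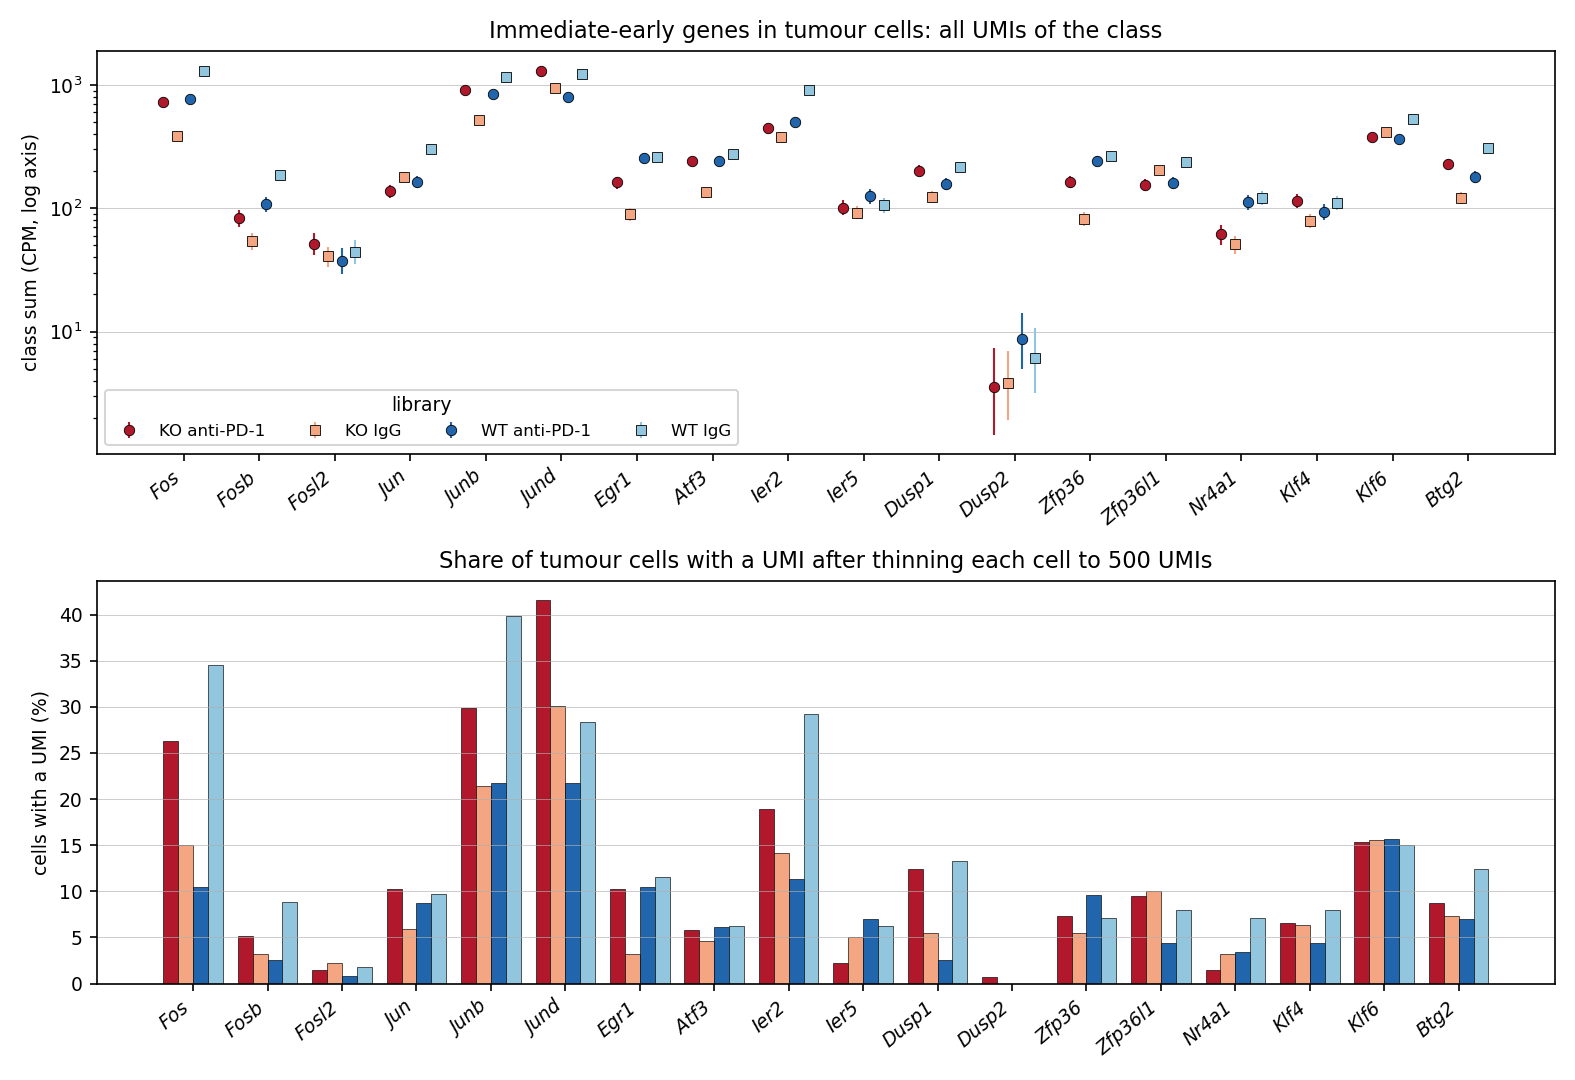
The 18 immediate-early genes in tumour cells, as CPM of the class sum with exact 95% counting intervals on a log axis (top) and as the percentage of cells with a UMI after thinning each cell to 500 UMIs (bottom); each colour is 1 library. For Fos the share of cells is 26.3% in KO anti-PD-1 and 15.1% in KO IgG, against 10.4% in WT anti-PD-1 and 34.5% in WT IgG.

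Sub-clusters of the tumour cells, drawn without these genes, differed widely in immediate-early level, and so did the libraries within some of them. Sub-cluster 2 had 9823 CPM in KO anti-PD-1 (18 cells), 7767 in WT anti-PD-1 (17 cells) and 8563 in WT IgG (19 cells), and KO IgG held 1 cell of it. Sub-cluster 7 had 7297 in KO anti-PD-1, 9175 in KO IgG, 6944 in WT anti-PD-1 and 9809 in WT IgG. Sub-clusters 5 and 1 had no more than 1871 and 1053 in any library. Within sub-cluster 8 the levels were 2918 in KO anti-PD-1, 2235 in KO IgG, 3082 in WT anti-PD-1 and 6529 in WT IgG, the last from 5 cells. Sub-cluster 6, which held 69 of the 219 KO IgG cells, had 8614 in KO anti-PD-1, 4718 in KO IgG, 2398 in WT anti-PD-1 and 6839 in WT IgG. Over all 10 sub-clusters KO IgG was below WT IgG in 8, the exceptions being sub-cluster 1 and the single KO IgG cell of sub-cluster 2. KO anti-PD-1 was above WT anti-PD-1 in 7, KO anti-PD-1 was above KO IgG in 7, and WT anti-PD-1 was below WT IgG in 8. These counts take in small sub-clusters, such as sub-cluster 11 with 4 or 5 cells and 5016 to 11863 UMIs in a library. Sub-clusters share their libraries and are not repeats. The part of sub-cluster make-up in the class values was not tested.

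Other values moved with the tumour-cell libraries. Mitochondrial RNA was 3.65% of UMIs in KO anti-PD-1, 3.43% in KO IgG, 2.43% in WT anti-PD-1 and 2.39% in WT IgG. The 10 neutrophil markers, all detected in tumour cells, summed to 665 CPM in KO anti-PD-1, 633 in KO IgG, 836 in WT anti-PD-1 and 1199 in WT IgG, against 119603 to 130317 in neutrophils themselves. The 10 macrophage markers, also all detected, summed to 1013 in KO anti-PD-1, 254 in KO IgG, 389 in WT anti-PD-1 and 574 in WT IgG. Their part in the tumour-cell values was not tested.

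**Figure D4:**
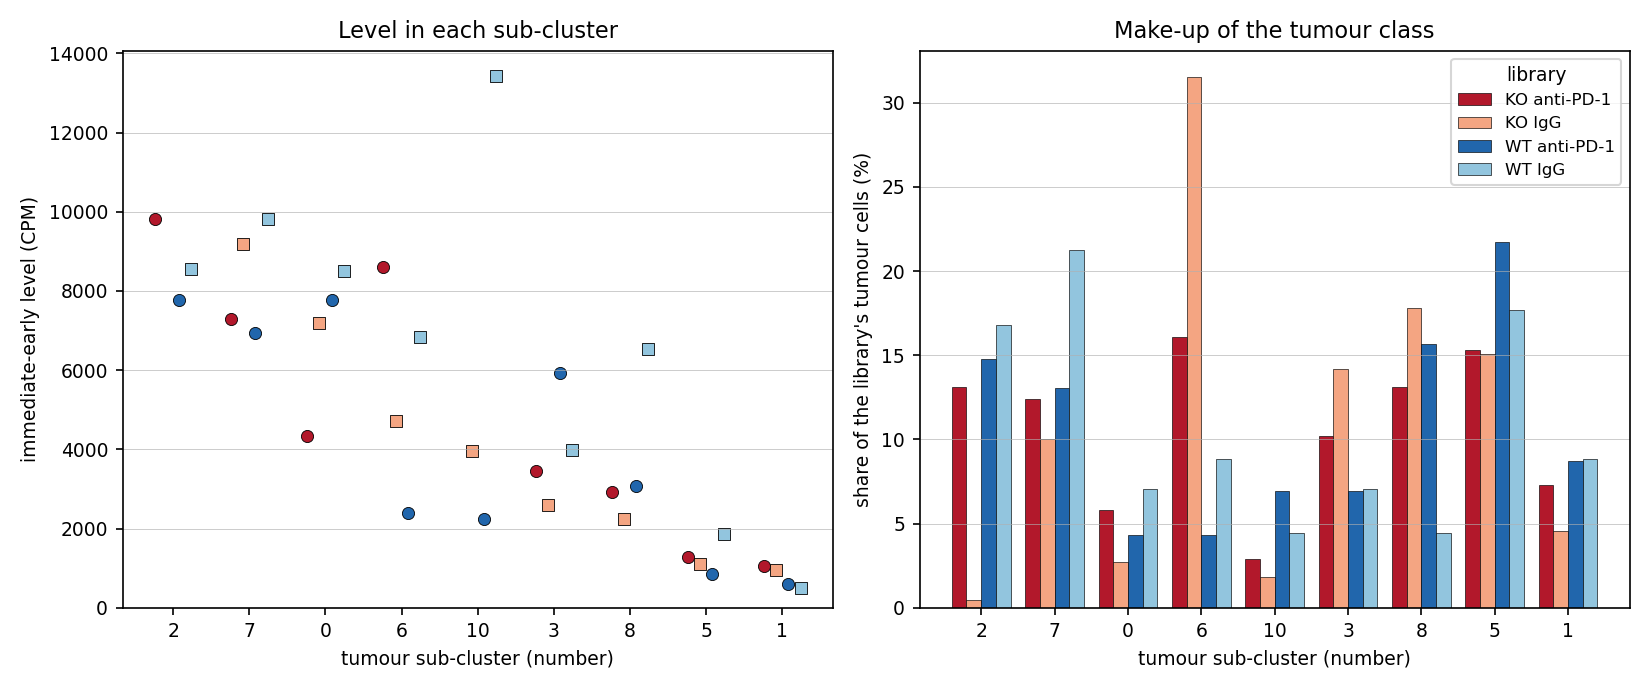
Summed level of the 18 immediate-early genes in each tumour sub-cluster in CPM (left) and the share of a library's tumour cells in each sub-cluster in percent (right); each colour is 1 library, and library sums under 20000 UMIs are not drawn as points. The points drawn for sub-clusters 2 and 7 lie between 6944 and 9823, sub-clusters 1 and 5 stay at or under 1871, and KO IgG has 1 cell in sub-cluster 2.

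Genes of the same pathways outside the set were counted from 2 further lists of 40 early-response and 45 chaperone or stress genes. In KO anti-PD-1 against WT anti-PD-1, 31 of 261 early-response pairs were higher and 20 lower, and 26 of 306 chaperone pairs were higher and 38 lower, against the 9.57% and 13.4% of all pairs given above. The widest were metallothionein Mt2 in T cells with 30.3 CPM in KO anti-PD-1 and 7.88 in WT anti-PD-1 (1.95, 1.33 to 2.58), Egr2 in B cells (−1.76, −3.69 to −0.31) and Mt1 in B cells (1.68, 1.12 to 2.24). Ier3 (1.54) and Cebpb (1.53) in B cells and Mt1 in T cells (1.499) followed. Without the B cells rich in neutrophil markers the B-cell ratios were 0.77 for Cebpb, 1.06 for Ier3, 1.65 for Mt1 and −1.67 for Egr2. In KO IgG against WT IgG, 31 of 263 early-response pairs were higher and 37 lower, and 16 of 314 chaperone pairs were higher and 22 lower, where 10.6% of all pairs were higher and 8.72% lower. There the AP-1 gene Fosl1 in tumour cells had 46.0 in KO IgG and 11.2 in WT IgG (2.03, 1.37 to 2.75), opposite in sign to Fos and Fosb in those cells, with Klf2 in plasma cells at 1.70, Rgs2 in tumour cells at −1.65, the haem oxygenase gene Hmox1 in dendritic cells at 1.61, Mt2 in tumour cells at 1.25 and Ddit3 in monocytes and macrophages at 0.97.

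In KO anti-PD-1 against KO IgG, 25 of 251 early-response pairs were higher and 14 lower, and 16 of 299 chaperone pairs were higher and 21 lower, where 8.88% of all pairs were higher and 13.6% lower. Rgs1 in tumour cells had 39.9 CPM in KO anti-PD-1 and 9.12 in KO IgG (2.13, 1.47 to 2.83), and the heat-shock factor gene Hsf2 there had 6.13 in KO anti-PD-1 and 16.1 in KO IgG (−1.40, −2.45 to −0.46). Rgs2 in tumour cells (1.38), Dusp4 in T cells (1.36), Mt2 in dendritic cells (1.13) and Dnajb4 in T cells (−1.06) followed. In WT anti-PD-1 against WT IgG, 19 of 268 early-response pairs were higher and 12 lower, and 8 of 319 chaperone pairs were higher and 14 lower, where 6.96% of all pairs were higher and 6.84% lower. Gadd45g in plasma cells (−1.81) and NK cells (1.70), Egr2 in B cells (1.71), Hspa2 (−0.99) and Mt2 (0.84) in tumour cells and Stub1 in plasma cells (0.72) were the widest.

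The genes whose levels over the 32 combinations of class and library were most like the mean of the immediate-early list were Nadk (Pearson r 0.97), Snap23, Atp6v1g1, Mboat7 and Nfe2l2, among 10486 genes. For the heat-shock list they were Ppia (0.95), Tomm20, Nsun2, Npm1 and Polr2h. These are descriptions over points that share libraries and depth. The UMIs of Hspd1 over those of Hspe1, which share a promoter stretch, ran from 0.146 to 0.618 in the 32 combinations, with a median of 0.332. This ratio was lowest in KO anti-PD-1 in every class but neutrophils, where WT anti-PD-1 was lowest. In tumour cells it was 0.368 in KO anti-PD-1, 0.586 in KO IgG, 0.546 in WT anti-PD-1 and 0.618 in WT IgG. The cause was not tested. The ratio of Hspa1a to Hspa1b ran from 0.10 to 5.13 over 22 combinations, with a median of 2.51.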

How the data were processed

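Single-cell 3′ RNA was measured in 4 libraries, 1 per group. The deposited values are whole UMI counts per gene and barcode, made with Cell Ranger 3.0.0 per the file headers, after bcl2fastq per the submitters' processing notes. Those notes name the build hg19, whereas the gene table holds mouse Ensembl identifiers. The barcode list used here covers 1 library, so barcodes shared between libraries were not analysed here. The tables total 16078095 counts in KO anti-PD-1, 17578188 in KO IgG, 22369904 in WT anti-PD-1 and 22506737 in WT IgG.

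From these counts, cells with under 200 genes or over 10% mitochondrial UMIs were left out. Doublets were removed at a Scrublet score of 0.25 (82 cells in KO anti-PD-1, 104 in KO IgG, 98 in WT anti-PD-1 and 86 in WT IgG), since its automatic limit marked 0 in KO anti-PD-1, 3 in KO IgG, 98 in WT anti-PD-1 and 75 in WT IgG and so had not worked for the KO libraries. Scanpy 1.11.5 clustered the rest on 2000 variable genes and 30 components at resolution 1, and 24 clusters were named from fixed markers. Counts were summed per class and library, scaled to CPM and compared as ratios with exact conditional Poisson intervals, checked on simulated data. The simulated sums were themselves Poisson draws, so that check does not cover the spread among cells. A list's value in a class is the median of its genes' ratios, and its value over classes the median of those 8. No p-value was made, and TMM factors from edgeR 4.0.16 were an alternative.

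The genes and lists were chosen with earlier results of these data known. Named with full values were Fos, Jun, Dusp1, Hspa1a, Hsp90ab1 and Hspa8. Per comparison the 8 widest ratios of gene and class with at least 50 UMIs and an interval excluding equality were named as well, and the 3 widest of each further list. The count of pairs in which both KO libraries lay on 1 side of both WT libraries (at least 40 UMIs in all), its thinned form, the values within clusters, the tumour sub-clusters and the values without cells holding markers of another type were added after the data were seen.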

Additional observations from a re-analysis of the deposited data

Results flagged for a closer look

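In tumour cells, Fos, Fosb and Btg2 had opposite signs in the antibody comparisons of the genotypes. On the log2 scale anti-PD-1 over IgG gave 0.90 in KO tumours and −0.75 in WT tumours for Fos, 0.62 in KO tumours and −0.78 in WT tumours for Fosb, and 0.91 in KO tumours and −0.79 in WT tumours for Btg2. With 1 library per group these differences were not tested, and the sub-clusters behind them were unequally filled. Hspa1a in neutrophils gave 0.75 for KO over WT under anti-PD-1 and −1.55 for KO over WT under IgG, a difference that was likewise not tested.

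Cells left out for their mitochondrial share, which enter no comparison, had more Hspa1a than the kept cells in a pair of libraries. As CPM over UMIs of genes other than mitochondrial ones, they had 117 in KO anti-PD-1, where kept cells had 40.2, and 73.3 in WT IgG, where kept cells had 27.9. In KO IgG they had 30.5 and kept cells 45.6, and in WT anti-PD-1 they had 24.1 and kept cells 21.0. The cells left out were few, 398 with 315453 such UMIs in KO anti-PD-1 and 320 with 313888 in WT IgG. They were not split by class, although the level of Hspa1a differed between classes, and no interval is given.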

How the results depend on the processing

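No value past 1.5-fold changed sign under the alternatives run. The medians over classes stayed within the counting band of the reported value under TMM and median-of-ratios scaling, both count filters, thinning to 500 UMIs, cells with at least 1000 UMIs, means over cells, a 5% mitochondrial limit, no doublet removal, clustering resolution 0.5 and clustering with the genes left in. Staying within that band is a weak check, because the band is wide. Its limits were −0.68 and −0.18 for the heat-shock genes of KO anti-PD-1 over WT anti-PD-1. Under these settings the heat-shock medians ran from −0.46 to −0.33 in KO anti-PD-1 against WT anti-PD-1. They ran from −0.27 to −0.19 in KO IgG against WT IgG and from −0.27 to −0.16 in KO anti-PD-1 against KO IgG. For the immediate-early genes the medians ran from 0.03 to 0.16 in KO anti-PD-1 against WT anti-PD-1. The other 4 medians lay near 0 and took both signs, within −0.07 and 0.13. The distance from neutrophils to plasma cells in immediate-early level, a log2 ratio of 3.05, became 2.84 in cells with at least 1000 UMIs, 2.06 under median-of-ratios factors over all classes and 2.83 without Junb. That from tumour cells to neutrophils in heat-shock level, 1.88, became 1.49 under median-of-ratios factors. Under those factors plasma cells moved up to place 4 for the immediate-early and place 2 for the heat-shock genes, and neutrophils kept the top of the first order and the end of the second. The causes were not tested. In tumour cells the immediate-early median of WT anti-PD-1 against WT IgG was −0.46 and became −0.90 on thinned cells. That of KO anti-PD-1 against WT anti-PD-1 was −0.07 and became 0.60 on thinned cells and 0.43 as a mean over cells, so its direction rests on the weighting of cells. Rescaling shifted the median of all genes by at most 0.22, in plasma cells. Of values for single genes 1219 stayed within their interval and 131 moved. No paired analysis was possible because each group holds 1 library. B cells (270235 to 980779 UMIs in a library) and NK cells (511341 to 789255) had the smallest class sums, and counts were fewest there at a given level. Tumour cells, at 113 to 219 in a library, summed to 1832994 to 2850425 UMIs. Plasma cells, at 71 to 147, summed to 676589 to 1969069.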
